A study of Mus musculus with 18 samples.

Results

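Nuclear RNA of mouse embryonic stem cells labelled Ythdc1 cKO was compared with that of their control before transcription was blocked, in 4 of the 18 libraries of the series. The 4 were taken by genotype and time point: 2 libraries labelled cKO (read here as conditional knockout) and 2 labelled control, all at 0 h, which are the starting point of an actinomycin D time course. The series also holds both genotypes after the drug and a Mettl3 experiment with a control and lines labelled KO1 and KO2. All cells were of C57BL/6 background and grew in medium with 15% serum, 1000 U/ml LIF, 3 µM CHIR99021, an inhibitor of GSK3, and 1 µM PD0325901, an inhibitor of MEK. Both groups at 0 h were harvested 48 h after seeding and received no actinomycin D, although the labels list the drug as the agent of every sample. The nuclear fraction was isolated, 0.1 µl of ERCC spike-in RNA was added, ribosomal RNA was removed and the remainder was sequenced with a stranded total RNA kit. How the Ythdc1 allele was made or deleted, and whether the cells are 1 clone, is not given in the labels.

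YTHDC1 is the nuclear reader of N6-methyladenosine (m6A), the modification that the METTL3 and METTL14 methyltransferase places on nascent RNA. It is known to act in splicing, in the export and decay of nuclear RNA, and in the silencing of retrotransposons in embryonic stem cells. Nuclear RNA at steady state reflects both synthesis and loss of a transcript, and the comparison at 0 h shows their net result.

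The 4 libraries held 8723612 to 12524328 reads in genes. Reads assigned to no annotated feature made up 50.1% and 49.7% of uniquely placed reads in control and 53.5% and 52.3% in cKO. Whether these lie in introns or between genes cannot be told, since the counting options are not given. Mitochondrial RNA, which is not nuclear, took 2.70% and 2.32% of gene reads in control and 3.98% and 3.42% in cKO. Spike-in reads, in CPM (read counts scaled to the total of gene reads), stood at 795 and 772 in control and 1013 and 961 in cKO. At 3 h of the drug the order was reversed, with 1098 and 1103 in control and 277 and 272 in cKO. At 6 h they stood at 1292 and 1295 in control and 1846 and 1889 in cKO. How evenly the spike-ins were added was not tested, so spike-in scaling is given only as a second reference. Scaled to spike-ins, the median change of all genes at 0 h was -0.355 on the log2 scale, against 0.0138 with the TMM scaling used below. A rise or fall here is therefore relative to the typical gene of the library. Genes that rose by less than about 0.36 with TMM were below 0 with spike-in scaling, which holds for 21 of those named here. Of the genes tracked, 18 more kept their direction but lost their call with spike-in scaling. Among those named below these were Cenpe, Fosl1, Fzd7, Ifitm3, Itga5, Jak1, Kdm2b, Kdr, Krt18 and Lama5. Lef1, Lif, Map2, Slc2a1, Socs3, Stag3 and Stat2 lost their call as well. The part of these shifts in the results was not tested. Within a group the replicates differed beyond counting error (chi-square per degree of freedom 3.95 in control and 4.37 in cKO), and no 2 libraries looked like repeats of the same library. Nothing in the labels says that replicates came from separate cultures, so p-values measure the spread between these libraries. In bulk RNA, fewer cells expressing a gene and less RNA per cell cannot be told apart.

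Ythdc1 itself (ENSMUSG00000035851, mm10 chromosome 5, 86804221 to 86836659), the targeted gene, was measured at 145 and 132 CPM in control and 143 and 120 CPM in cKO. The groups overlapped, and the log2 fold change was -0.07 ± 0.079 (SE, n = 2 and 2; edgeR adjusted p = 0.557). Without replicate 2 of cKO the value turned to 0.04, and spike-in scaling gave -0.44 (adjusted p = 2.49e-05). Counts per gene cannot show whether an exon is missing, so the group is called by its label, cKO, and each direction below is that of the libraries so labelled. At 6 h of actinomycin D, in other libraries, the log2 fold change of Ythdc1 was -1.38, lower in cKO (adjusted p = 1.08e-13), and the difference between the times was -1.31 (adjusted p = 1.25e-09).

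In all, 5255 of 17900 genes tested were called at an adjusted p below 0.05 in edgeR's quasi-likelihood test (29.4%). Of these, 2425 were higher in cKO (13.5% of genes tested) and 2830 lower (15.8%), and in 2422 and 2826 of them both cKO libraries lay outside the range of both controls. No overlap between the libraries was also seen in 31.9% (cKO higher) and 30.8% (cKO lower) of all genes. Changes of at least 2-fold were fewer and mostly increases, 689 higher (3.85%) and 324 lower (1.81%). With spike-in scaling the counts were 790 higher and 7571 lower, so that higher genes made up 9.45% of the calls in place of 46.1%. Split by level into 4 classes of equal size, 8.34% of the lowest and 51.0% of the highest class were called.

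**Figure D1:**
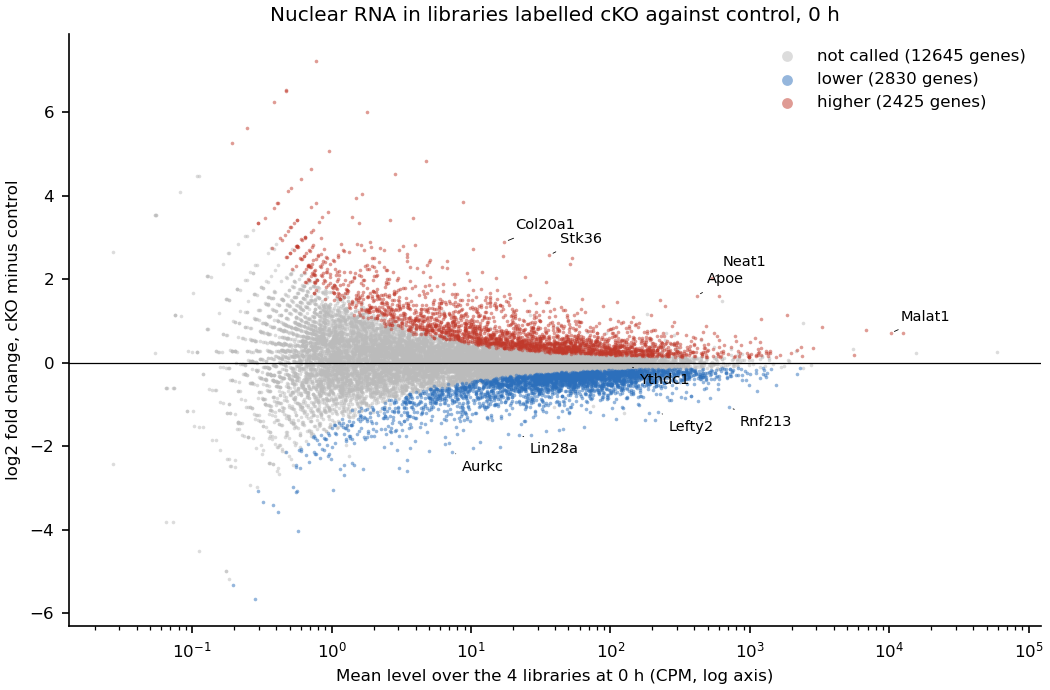
Log2 fold change of cKO against control at 0 h for each gene tested, against its mean level over the 4 libraries in CPM (log axis). Red points are the 2425 genes called higher, blue points the 2830 called lower and grey points the genes not called; Ythdc1 lies at -0.07 among the grey points and Neat1 at 2.03.

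Classes of RNA differed in level and in how their genes were called. Of 1337 long noncoding genes, 170 were higher and 42 lower (12.7% and 3.14%, against 13.5% and 15.8% of all genes); their median was 0.23, and their share of gene reads was 8.81% and 9.21% in control and 10.7% and 10.98% in cKO. Of 14137 protein-coding genes, 2040 were higher and 2723 lower (14.4% and 19.3%), and the median was -0.02. The median level was 1.68 CPM in the long noncoding class and 18.9 CPM in the protein-coding class, and genes of low level were called less often, as above. Unclassified transcripts had 113 higher and 17 lower of 968, and antisense transcripts 41 higher and 4 lower of 357. Of 170 snoRNA and scaRNA genes, which guide the modification of ribosomal and spliceosomal RNA, 11 were higher, a share of 6.47% that is below that of all genes. Spike-in scaling put the median of long noncoding genes at -0.134 (89 higher, 155 lower) and that of protein-coding genes at -0.386. Whether reads of antisense and intronic genes come from their own transcripts was not tested, since the strand setting of the counting is not given in the sources used here.

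Protein-coding genes that were higher spanned more of the genome than those that were lower. The median span was 43370 bp for 1586 genes higher by less than 2-fold and 18680 bp for 2448 genes lower by less than 2-fold, against 23830 bp for 9382 genes not called. Genes changed by at least 2-fold showed the same order, 28850 bp for 456 higher and 15960 bp for 275 lower. The smaller increases also had more exons, a median of 11 against 8 in genes not called, and longer transcripts, 4554 against 3277 nt. The density of the letters GGACT, the commonest form of the m6A consensus, differed less between these classes. It was 1.06 per kb of transcript in genes higher by at least 2-fold, 1.16 in those lower by at least 2-fold and 1.05 in genes not called. These are descriptions of genes that also differ in level: the median was 45.6 CPM in the smaller increases and 53.8 in the smaller decreases, but 11.3 in genes not called.

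The 12 largest increases among well-measured genes with regular names were from diverse families. Col20a1, a collagen gene (chromosome 2, 180986535 to 181018363), had 4.88 and 3.51 CPM in control and 29.1 and 31.9 CPM in cKO, a log2 fold change of 2.89 ± 0.18 (adjusted p = 1.5e-15). Thbs1, which encodes the matrix protein thrombospondin, had 3.03 and 2.44 CPM in control and 17.8 and 18.2 CPM in cKO (2.73 ± 0.25). Stk36, a kinase gene of cilia and Hedgehog signalling (chromosome 1, 74601445 to 74636894), had 10.7 and 10.2 CPM in control and 59.6 and 65.2 CPM in cKO (2.58 ± 0.11, adjusted p = 5.6e-20). In each of them both cKO libraries were several times above both controls, and the replicates lay close together. Nckap1l, a subunit of the actin-regulating WAVE complex known from blood cells, had 18.5 and 15.04 CPM in control and 83.04 and 87.5 CPM in cKO (2.36 ± 0.12). Gpnmb, a transmembrane glycoprotein gene, had 4.34 and 4.35 CPM in control and 18.2 and 20.9 CPM in cKO (2.17 ± 0.18). Dll1, a Notch ligand gene, had 3.47 and 3.44 CPM in control and 13.2 and 17.5 CPM in cKO (2.15 ± 0.22). The groups did not overlap in any of them, as the selection required. Cldn4, a tight junction gene, had 15.2 and 13.8 CPM in control and 47.7 and 62.4 CPM in cKO (1.93 ± 0.13), and Plaur, the urokinase receptor gene, 3.25 and 4.43 CPM in control and 15.1 and 16.1 CPM in cKO (1.99 ± 0.25). The adhesion receptor gene Adgrl3 rose by 2.44 ± 0.26, the phosphodiesterase gene Pde1c by 2.28 ± 0.28 and Cyyr1 by 1.90 ± 0.26, all from levels between 1.91 and 2.82 CPM in control. The remaining gene of the 12, Neat1, is described with the long noncoding RNAs.

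Among the largest decreases, 11 genes are described, which included genes of the germline, of signalling and of membranes. Aurkc, the meiotic Aurora kinase gene (chromosome 7, 6995300 to 7003091), had 12.03 and 11.8 CPM in control and 3.04 and 2.35 CPM in cKO (-2.14 ± 0.22, adjusted p = 1.43e-09). Dppa3, the maternal factor that protects DNA methylation in the early embryo (chromosome 6, 122626410 to 122630272), had 18.6 and 14.7 CPM in control and 4.67 and 3.35 CPM in cKO (-2.03 ± 0.21). Lin28a, which blocks the maturation of let-7 miRNA, had 33.6 and 34.3 CPM in control and 10.96 and 9.61 CPM in cKO (-1.72 ± 0.14, adjusted p = 3.3e-12). All cKO libraries lay below all controls in these genes, which the selection required. Itpka, an inositol trisphosphate kinase gene, had 26.9 and 25.3 CPM in control and 6.404 and 6.37 CPM in cKO (-2.02 ± 0.15). The cytokine gene Osm had 8.56 and 11.99 CPM in control and 2.82 and 2.57 CPM in cKO (-1.94 ± 0.27), and Tmem181a 37.7 and 44.4 CPM in control and 12.5 and 12.5 CPM in cKO (-1.72 ± 0.12). By the same rule no control library reached down to a cKO library. The other 5 fell by 1.65 to 1.90: Tmc7 (log2 -1.90), Copz2, a subunit of the COPI coat (-1.78), Lrrc15 (-1.71), the calmodulin-dependent kinase gene Camk1 (-1.71) and Mvb12b, a component of the ESCRT machinery (-1.65).

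**Figure D2:**
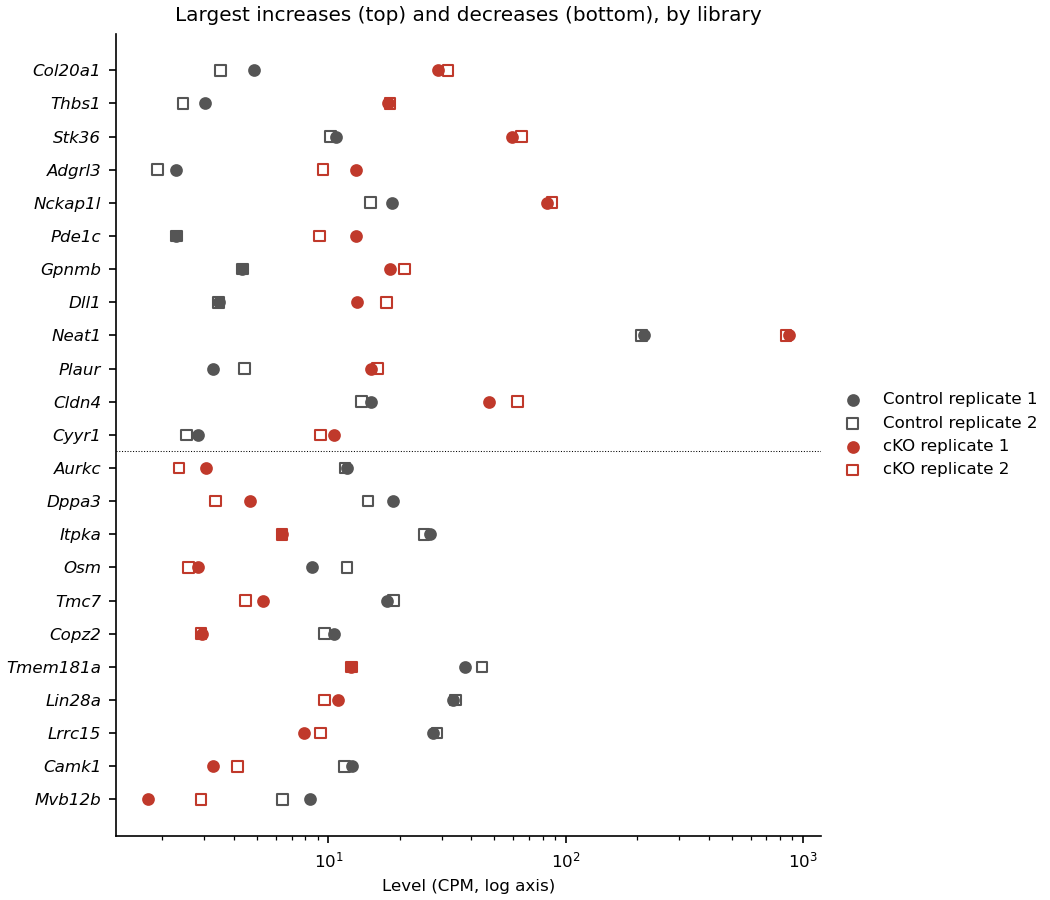
Level in CPM (log axis) of the 12 genes with the largest increases (above the dotted line) and 11 with the largest decreases (below it) in each of the 4 libraries at 0 h; grey marks control, red cKO, filled circles replicate 1 and open squares replicate 2. The 2 groups do not overlap in any of the 23 genes, as the selection required, and Neat1, at 208 to 870 CPM, lies well above the level of the others.

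Among the most abundant RNAs changed by at least 2-fold, 5 higher and 6 lower genes are described. The small nucleolar RNA Snord17 had 849 and 723 CPM in control and 1678 and 1552 CPM in cKO (1.04 ± 0.14), Apoe, a lipid carrier gene, 200 and 211 CPM in control and 605 and 647 CPM in cKO (1.61 ± 0.049) and Txnip, a thioredoxin-binding regulator of glucose uptake, 138 and 139 CPM in control and 363 and 349 CPM in cKO (1.36 ± 0.063). D10Wsu102e rose by 1.61 ± 0.052. In the other direction Rnf213, a very large ubiquitin ligase gene, had 949 and 975 CPM in control and 455 and 464 CPM in cKO (-1.07 ± 0.043). Scd2, a fatty acid desaturase gene, had 254 and 255 CPM in control and 99.5 and 97.2 CPM in cKO (-1.37 ± 0.058), and Sgk1, a kinase gene of the phosphoinositide pathway, 271 and 256 CPM in control and 112 and 117 CPM in cKO (-1.204 ± 0.070). The adenylate kinase gene Ak4 fell by 1.38 ± 0.064 and the uridine kinase gene Uck2 by 1.01 ± 0.067. Neat1 and Lefty2, which belong to these 11, are described with their groups. In all 11 the replicates of a group were much closer to each other than the groups were.

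Genes of the 2-cell-like state, a rare and transient condition of embryonic stem cells that resembles the embryo at zygotic genome activation, were mostly higher. Of 37 tested members 26 rose and 3 fell, and the median was 0.945 against 0.0138 for all genes; with spike-in scaling the counts were 19 and 3, and the median 0.576. Zscan4d, which encodes a telomere-associated zinc finger protein (chromosome 7, 11161374 to 11166159), had 19.08 and 18.1 CPM in control and 56.1 and 52.5 CPM in cKO (1.55 ± 0.11, adjusted p = 7.78e-14). Usp17le, of a deubiquitinase family, had 21.03 and 17.1 CPM in control and 48.7 and 55.1 CPM in cKO (1.46 ± 0.13), and Gm12794, of the PRAME family, 23.1 and 22.2 CPM in control and 56.3 and 54.6 CPM in cKO (1.29 ± 0.12). All 6 Zscan4 genes of the list rose, from Zscan4c (0.91) over Zscan4a, annotated as a pseudogene (0.94), to Zscan4d. The pioneer factor gene of the state, Dux, is listed as Duxf3 and was at 2.49 and 2.52 CPM in control and 3.91 and 3.24 CPM in cKO (0.51 ± 0.32; adjusted p = 0.254), which did not pass the test. The exceptions were Obox6, a homeobox gene, which fell with 38.5 and 32.8 CPM in control and 17.8 and 18.4 CPM in cKO (-0.97 ± 0.14), and the PRAME-like genes Pramel6 (-1.32 ± 0.19) and Pramel7 (-0.50 ± 0.15), which are also known from naive stem cells. Leaving out any 1 of the 4 libraries left 20 to 24 members higher and 2 to 3 lower. These genes are close copies, and only reads placed uniquely were counted, so values of single copies are uncertain.

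Promoters from RefSeq (GRCm38.p6, 250 bases before to 50 after the annotated start) could be matched for 17 of the 37 genes. The letters TATAAA, the core of the TATA box, were found on either strand in 8 of the 17 (47.1%), against 3827 of 27025 promoters in all (14.2%). All 8 genes with the letters were higher, and of the 9 without them 4 were higher and 2 lower. The 8 were Zscan4b, Zscan4c, Zscan4d, Zscan4f, Usp17lb, Usp17lc, Usp17ld and Ddit4l. The other Zscan4 promoters were 97.2% to 97.7% identical to that of Zscan4d, so these shares count close copies separately. The letters stand 35 bases after the start in Ddit4l and 110 before it in Usp17ld. The promoters of Zscan4d and Zscan4c are shown to let their likeness be seen, 281 of 289 aligned bases (97.2%). TATAAA stands in capitals, 65 bases before the start of Zscan4d (chr7:11166099-11166398, minus strand) and 54 before that of Zscan4c (chr7:11005495-11005794, plus strand).
Zscan4d: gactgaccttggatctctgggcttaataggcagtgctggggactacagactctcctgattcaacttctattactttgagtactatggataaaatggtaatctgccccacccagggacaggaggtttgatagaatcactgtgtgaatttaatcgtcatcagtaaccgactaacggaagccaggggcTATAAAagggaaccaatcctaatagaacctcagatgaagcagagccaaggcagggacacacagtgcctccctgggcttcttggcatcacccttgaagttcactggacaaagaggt
Zscan4c: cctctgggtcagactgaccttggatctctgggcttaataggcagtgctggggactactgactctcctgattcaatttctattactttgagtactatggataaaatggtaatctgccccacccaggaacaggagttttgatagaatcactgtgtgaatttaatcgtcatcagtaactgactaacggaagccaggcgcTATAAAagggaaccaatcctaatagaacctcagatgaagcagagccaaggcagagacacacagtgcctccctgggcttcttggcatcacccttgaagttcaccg

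Among nuclear long noncoding RNAs, 14 of 27 rose and 3 fell, with a median of 0.408; scaled to spike-ins, 6 were higher and 8 lower, and the median was 0.0392. Neat1, the RNA that builds paraspeckles (chromosome 19, 5824708 to 5845478), had 213 and 208 CPM in control and 870 and 847 CPM in cKO (2.03 ± 0.064, adjusted p = 2.9e-24), and both cKO libraries were about equally far above the controls. Malat1, which lies next to Neat1 and is found in nuclear speckles, had 8053 and 7447 CPM in control and 13268 and 12059 CPM in cKO (0.71 ± 0.040). Both stayed higher with spike-in scaling, by 1.66 and 0.34. RNA of the X inactivation centre was scarce but higher: Ftx had 4.99 and 5.498 CPM in control and 10.5 and 12.6 CPM in cKO (1.13 ± 0.23) and Xist 0.217 and 0.229 CPM in control and 1.303 and 1.01 CPM in cKO (2.32 ± 0.81). Kcnq1ot1, a long imprinted antisense RNA, rose slightly (0.19 ± 0.051) but was at -0.179 with spike-in scaling. The pluripotency-associated transcript Platr15 had 0.759 and 1.298 CPM in control and 6.19 and 5.59 CPM in cKO (2.45 ± 0.28). The protein components of paraspeckles were mostly lower or not called. Of 15 tested members of that list, Neat1 included, 2 rose and 6 fell (scaled to spike-ins 1 and 12; 3 fell without replicate 2 of cKO and 1 rose without replicate 2 of control), with Nono, a core protein, at 207 and 218 CPM in control and 146 and 149 CPM in cKO (-0.53 ± 0.059), its partner Sfpq at -0.04 (adjusted p = 0.629) and Pspc1 at 0.26 ± 0.074, below 0 with spike-in scaling.

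Imprinted genes, which are expressed from the allele of 1 parent, were more often higher than lower: 14 of 38 rose and 3 fell, with a median of 0.207 that turned to -0.161 with spike-in scaling (8 higher, 14 lower). Without replicate 1 of cKO or replicate 2 of control, 1 fell. Peg10, a retrotransposon-derived gene, had 114 and 121 CPM in control and 334 and 338 CPM in cKO (1.51 ± 0.062), and its neighbour Sgce 3.58 and 2.902 CPM in control and 12.3 and 11.4 CPM in cKO (1.89 ± 0.23). H19, a noncoding RNA, had 5.31 and 5.42 CPM in control and 18.02 and 18.4 CPM in cKO (1.76 ± 0.16), and Peg3, a zinc finger gene, 192 and 196 CPM in control and 357 and 354 CPM in cKO (0.87 ± 0.054). Igf2r rose by 0.51 ± 0.048. In each of these genes the libraries did not overlap. Igf2, which shares its control region with H19, did not reach the minimum for testing.

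The WNT pathway, which was stimulated in all samples by CHIR99021, had several targets that were lower. Of 38 tested members 4 rose and 15 fell (scaled to spike-ins 2 and 23), with a median of -0.18. Among ligands, Wnt8a rose with 2.49 and 2.83 CPM in control and 4.88 and 7.04 CPM in cKO (1.15 ± 0.27), and no other tested ligand passed the test. Among receptors, Fzd5 fell with 176 and 170 CPM in control and 129 and 122 CPM in cKO (-0.46 ± 0.067), as did Fzd3 (-0.40 ± 0.11), while Fzd7 rose with 20.4 and 16.6 CPM in control and 28.5 and 27.9 CPM in cKO (0.63 ± 0.13), and the coreceptor genes Lrp5 (0.07) and Lrp6 (0.04) were not called. Ctnnb1, which encodes the effector beta-catenin, fell by 0.14 ± 0.043, which is a small change, and Tcf7, a factor that carries beta-catenin to DNA, had 33.5 and 38.9 CPM in control and 23.8 and 23.5 CPM in cKO (-0.63 ± 0.11). Lef1, another such factor, rose with 18.5 and 21.9 CPM in control and 32.1 and 29.3 CPM in cKO (0.59 ± 0.13). The ligand and receptor antagonists Notum (-0.36 ± 0.069) and Znrf3 (-0.30 ± 0.089) fell. The classical target Axin2, a feedback inhibitor, had 50.5 and 53.8 CPM in control and 30.9 and 34.9 CPM in cKO (-0.67 ± 0.11), and the caudal homeobox gene Cdx1 63.4 and 64.9 CPM in control and 20.5 and 21.2 CPM in cKO (-1.62 ± 0.087, adjusted p = 3.29e-17). The cyclin gene Ccnd1 had 41.7 and 48.4 CPM in control and 21.4 and 23.9 CPM in cKO (-1.001 ± 0.11). In these 3 targets no cKO library came near a control library. The streak gene T (-2.39 ± 0.55), Cdx2 (-2.23 ± 0.74) and Sp5 (-1.599 ± 0.38) also fell, but from low levels: T had 2.71 and 2.06 CPM in control and 0.651 and 0.223 CPM in cKO, Cdx2 1.19 and 1.91 CPM in control and 0.434 and 0.223 CPM in cKO and Sp5 4.99 and 4.73 CPM in control and 2.28 and 0.894 CPM in cKO. Against these decreases Rnf43, a ubiquitin ligase gene that removes WNT receptors, rose, as Lef1 did. Rnf43 had 1.19 and 0.916 CPM in control and 2.71 and 3.69 CPM in cKO (1.62 ± 0.38).

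The promoter of Sp5 is shown because this target fell and holds the letters of the TCF-LEF motif, CTTTGAT. They were found on either strand in 2 of 25 promoters of the list (8.0%), Sp5 and Wnt11, against 3.72% of all promoters. Of these, Sp5 fell and Wnt11 was not called, and of the 23 promoters without the letters 8 belonged to lower and 3 to higher genes. In Sp5 the letters stand in capitals 104 bases before the start (chr2:70474673-70474972, plus strand).
Sp5: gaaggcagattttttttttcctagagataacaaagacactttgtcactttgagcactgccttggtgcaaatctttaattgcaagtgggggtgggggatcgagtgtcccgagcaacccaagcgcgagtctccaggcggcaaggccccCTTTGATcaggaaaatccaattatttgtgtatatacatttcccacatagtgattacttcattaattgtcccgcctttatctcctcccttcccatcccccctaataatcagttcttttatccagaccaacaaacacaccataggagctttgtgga

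FGF signalling through ERK, the pathway that PD0325901 blocks at MEK, moved in both directions, with 8 of 36 members higher and 8 lower (scaled to spike-ins 5 and 18) and a median of -0.00707. That is 22.2% in each direction, against 13.5% and 15.8% of all genes. Of 6 tested ligand genes 3 fell: Fgf4, the main FGF of these cells, had 382 and 364 CPM in control and 293 and 270 CPM in cKO (-0.41 ± 0.065), Fgf3 5.31 and 4.12 CPM in control and 1.303 and 1.45 CPM in cKO (-1.75 ± 0.36) and Fgf10 5.96 and 5.65 CPM in control and 1.74 and 0.559 CPM in cKO (-2.32 ± 0.38), and Fgf5, Fgf15 and Fgf17 did not pass the test. The 4 receptor genes did not pass the test, among them Fgfr1 at -0.01 ± 0.077. Of the kinases, Mapk3, which encodes ERK1, fell with 13.01 and 13.9 CPM in control and 8.36 and 8.38 CPM in cKO (-0.69 ± 0.16). Of the 8 members that rose, Spry4, a feedback inhibitor, had 9.65 and 10.9 CPM in control and 28.1 and 26.03 CPM in cKO (1.39 ± 0.18), the phosphatase genes Dusp6 11.8 and 12.3 CPM in control and 25.8 and 22.2 CPM in cKO (0.99 ± 0.17) and Dusp4 1.41 and 1.298 CPM in control and 3.69 and 4.803 CPM in cKO (1.65 ± 0.40), while Spred1, another inhibitor gene of the pathway, rose by 0.34 ± 0.13, below 0 with spike-in scaling. The ETS factor genes Etv4 (1.12 ± 0.18), Etv1 (1.24 ± 0.24) and Etv5 (0.27 ± 0.054, below 0 with spike-in scaling) and the AP-1 gene Fosl1 (1.99 ± 0.74) rose as well. The feedback gene Spry2 fell (-0.26 ± 0.077), and the ERK-induced Egr1 was not called. Leaving out any 1 of the 4 libraries left 6 to 9 members higher and 4 to 8 lower, the 4 without replicate 2 of control.

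Other signalling lists were mixed. In the LIF pathway, which sustains self-renewal through STAT3, 5 of 20 members rose and 8 fell (scaled to spike-ins 0 and 10), and 3 rose without replicate 2 of cKO or replicate 1 of control. The receptor genes Il6st, which encodes gp130 (138 and 141 CPM in control and 87.8 and 82.7 CPM in cKO; -0.71 ± 0.070), and Lifr (-0.34 ± 0.084) fell, whereas Lif (0.52 ± 0.15), Jak1 (0.42 ± 0.072), Stat3 (0.29 ± 0.067, below 0 with spike-in scaling) and the STAT3-induced inhibitor gene Socs3 (0.37 ± 0.085) rose. Bcl3, a STAT3 target, fell by 0.97 ± 0.23. In the TGF-beta and BMP list 7 of 35 rose and 4 fell, with a median of 0.173 that turned to -0.195 with spike-in scaling (5 higher, 12 lower). The shares were 20% and 11.4%, against 13.5% and 15.8% of all genes. Nodal, the main ligand, had 197 and 192 CPM in control and 369 and 394 CPM in cKO (0.97 ± 0.067), but its antagonist and target Lefty2 had 297 and 315 CPM in control and 131 and 138 CPM in cKO (-1.18 ± 0.060), while the related Lefty1 rose by 0.36 ± 0.10 but was at -0.00730 with spike-in scaling. Gdf3, a ligand that uses the same receptors, fell by 0.49 ± 0.069. The receptor gene Acvr2b had 43.1 and 47.96 CPM in control and 19.4 and 21.7 CPM in cKO (-1.15 ± 0.11), and the BMP targets Id1 (1.10 ± 0.23) and Id2 (1.202 ± 0.23) rose. Of the inhibitory SMAD genes, Smad6 fell (-1.26 ± 0.32) and Smad7 rose (0.34 ± 0.091, below 0 with spike-in scaling). In the Notch pathway 2 of 31 rose and 6 fell, with a median of 0.121 that turned to -0.247 with spike-in scaling (1 and 17). That is 19.4% lower, near the share of all genes, and 3 or 4 fell when any 1 library was left out, the 3 without replicate 2 of control. The rise of the ligand Dll1 given above went with lower receptor genes Notch4 (50.3 and 57.3 CPM in control and 24.9 and 32.5 CPM in cKO; -0.91 ± 0.10) and Notch3 (-0.42 ± 0.088) and a lower target, Hes1 (-0.61 ± 0.22). Jag1, another ligand gene, fell by 0.34 ± 0.085.

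Extracellular matrix and integrin genes were more often higher: 21 of 41 rose and 6 fell, with a median of 0.215. Scaled to spike-ins the median turned to -0.151, with 8 higher and 16 lower. Besides Col20a1 and Thbs1, the matrix genes Tnc (0.759 and 0.84 CPM in control and 5.21 and 5.36 CPM in cKO; 2.70 ± 0.36) and Lox, which encodes a collagen crosslinking enzyme (2.16 ± 0.44), rose from low levels. The abundant Fn1, which encodes fibronectin, had 2423 and 2559 CPM in control and 3124 and 3281 CPM in cKO (0.36 ± 0.037), a rise that was at -0.00346 with spike-in scaling. Among laminins, Lama5 rose with 617 and 689 CPM in control and 851 and 1037 CPM in cKO (0.53 ± 0.079) and Lamc1 by 0.26 ± 0.042 (below 0 with spike-in scaling), but Lama1 fell with 142 and 148 CPM in control and 87.8 and 105 CPM in cKO (-0.59 ± 0.078), together with the basement membrane collagens Col4a1 (-0.73 ± 0.084) and Col4a2 (-0.62 ± 0.12). Agrn, a heparan sulphate proteoglycan gene, had 543 and 574 CPM in control and 273 and 317 CPM in cKO (-0.92 ± 0.057). Of the integrins, Itgb7 (1.14 ± 0.13) and the fibronectin receptor chain Itga5 (0.42 ± 0.072) rose. The 10 tested markers of fibroblast feeder cells had 2 higher and 1 lower, with a median of 0.72 (0.352 scaled to spike-ins). They summed to 64.8 and 76.1 CPM in control and 70.5 and 77.9 in cKO, most of it Fbln1, which was not called (-0.06 ± 0.091). Col1a1 (1.19 and 2.21 CPM in control and 4.02 and 4.58 CPM in cKO; 1.27 ± 0.32) and Col1a2 (1.30 ± 0.35) rose from very low levels and Pdgfrb fell (-0.69 ± 0.25), while Postn and Col3a1 were below 1 CPM in all 4 libraries and Lum, Dcn and Prrx1 did not reach the minimum for testing. The part of feeder RNA in the matrix genes was not tested.

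**Figure D3:**
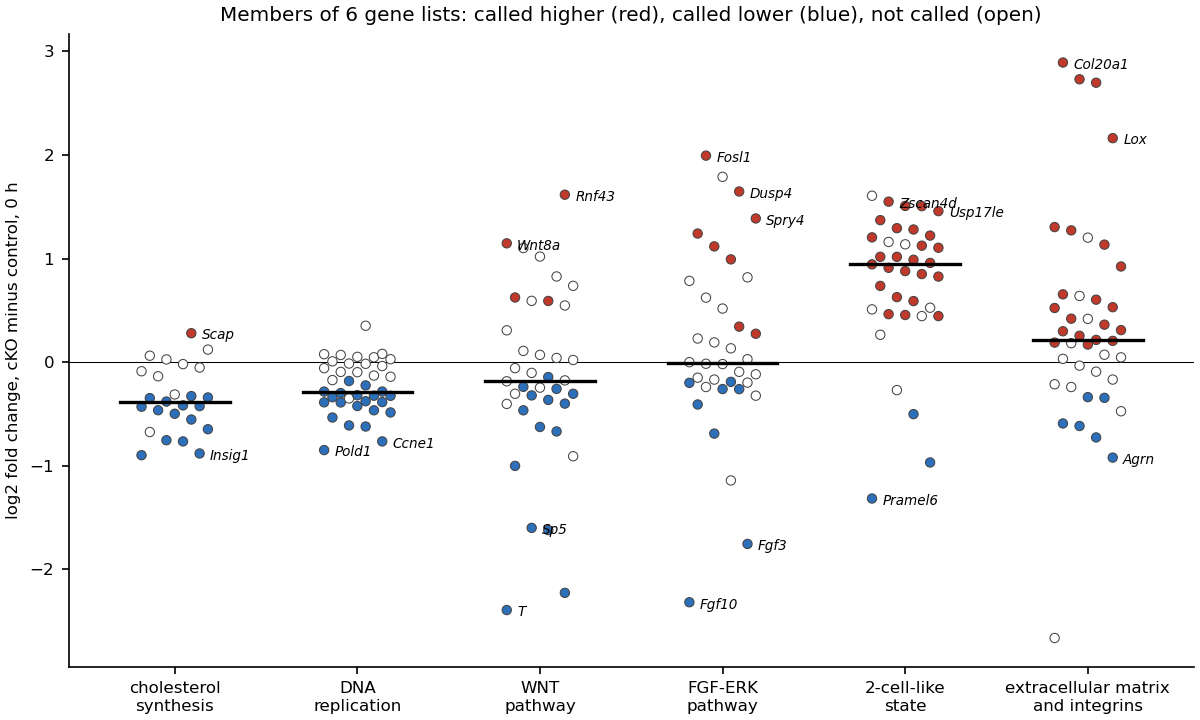
Log2 fold change of cKO against control at 0 h for each tested member of 6 gene lists; red points were called higher, blue points lower, open points not called, and the black line is the median of the list. The 2-cell-like list lies mostly above 0 (median 0.945), cholesterol synthesis and DNA replication mostly below (-0.38 and -0.283), and the FGF-ERK list spreads to both sides.

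Most genes of cholesterol synthesis were lower. Of 25 tested members 15 fell, 1 rose and 9 were not called, with a median of -0.38 (scaled to spike-ins 23 lower and 0 higher). When any 1 library was left out 10 to 14 fell, the 10 without replicate 2 of cKO. Insig1, which encodes the sterol-sensing retention factor of the pathway, had 63.2 and 66.6 CPM in control and 36.1 and 34.4 CPM in cKO (-0.88 ± 0.091, adjusted p = 9.02e-10). Of the enzymes, Tm7sf2 fell by 0.90 ± 0.23 and Fdps by 0.76 ± 0.20. Sqle, the squalene epoxidase gene, had 76.8 and 76.5 CPM in control and 45.7 and 52.3 CPM in cKO (-0.65 ± 0.084). The libraries of the 2 groups were apart in Insig1 and Sqle. Srebf2 and Srebf1, which encode transcription factors of lipid synthesis, fell by 0.46 ± 0.075 and 0.38 ± 0.087, and Hmgcs1, the synthase gene at its entry, by 0.42 ± 0.063. Scap, the escort protein gene of the transcription factor, rose by 0.28 ± 0.075 but was at -0.0855 with spike-in scaling. The desaturase Scd2, described above among abundant RNAs, is a lipid gene outside this list.

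Of 39 DNA replication genes 21 fell and 0 rose in edgeR, and the median was -0.283; at an unadjusted p below 0.05 the counts were 22 and 1, and by DESeq2 21 and 0. Scaled to spike-ins 38 were lower. Pold1, the catalytic subunit of DNA polymerase delta, had 158 and 176 CPM in control and 86.4 and 99.6 CPM in cKO (-0.85 ± 0.070), and Ccne1, the cyclin gene of S phase entry, 118 and 122 CPM in control and 67.5 and 73.8 CPM in cKO (-0.76 ± 0.073). The sliding clamp gene Pcna had 121 and 116 CPM in control and 84.9 and 78.8 CPM in cKO (-0.53 ± 0.071), and the single-strand binding subunit Rpa2 101 and 107 CPM in control and 69.4 and 67.2 CPM in cKO (-0.61 ± 0.078). Gins1, of the replicative helicase, fell by 0.62 ± 0.12. These 5 genes were lower in both cKO libraries than in both controls. The 6 tested subunits Mcm2 to Mcm7 of the replicative helicase all fell, by 0.18 to 0.39, whereas Pole (0.03), Pola1 (0.08), Tyms (0.05) and the ribonucleotide reductase gene Rrm2 (-0.04) were not called. Of 31 mitotic genes 14 fell and 3 rose (scaled to spike-ins 28 and 0; 5 rose without replicate 2 of cKO), with Cdk1 at 210 and 219 CPM in control and 158 and 144 CPM in cKO (-0.51 ± 0.063), Ccna2 at -0.45 ± 0.067 and, upwards, the kinesin gene Cenpe at 0.47 ± 0.070. Of 35 factors of ribosome biogenesis 17 fell and 2 rose (scaled to spike-ins 33 and 0), including Nhp2 (206 and 206 CPM in control and 142 and 140 CPM in cKO; -0.55 ± 0.057), Nop56 (-0.39 ± 0.051) and Polr1c, a subunit of RNA polymerases I and III (-0.52 ± 0.072).

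The E2F letters TTTCNCGC, where N is any base, were found on either strand in 9 of 30 matched promoters of the replication list (30.0%), against 591 of 27025 (2.19%). Of the 9 genes 6 were lower and 3 not called, and of the 21 without the letters 9 were lower. The promoters of Pold1 (chr7:44548766-44549065, minus strand) and Mcm7 (chr5:138171834-138172133, minus strand) are shown because both genes fell and hold the letters, in capitals, 39 bases after the start of Pold1 and 165 before and 16 after that of Mcm7. A match in capitals on the opposite strand reads as the reverse complement.
Pold1: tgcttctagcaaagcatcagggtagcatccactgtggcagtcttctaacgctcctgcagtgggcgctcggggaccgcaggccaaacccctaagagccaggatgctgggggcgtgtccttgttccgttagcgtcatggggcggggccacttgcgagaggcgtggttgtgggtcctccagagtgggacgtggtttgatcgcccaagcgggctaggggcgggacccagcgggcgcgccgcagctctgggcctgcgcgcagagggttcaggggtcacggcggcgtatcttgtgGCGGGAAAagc
Mcm7: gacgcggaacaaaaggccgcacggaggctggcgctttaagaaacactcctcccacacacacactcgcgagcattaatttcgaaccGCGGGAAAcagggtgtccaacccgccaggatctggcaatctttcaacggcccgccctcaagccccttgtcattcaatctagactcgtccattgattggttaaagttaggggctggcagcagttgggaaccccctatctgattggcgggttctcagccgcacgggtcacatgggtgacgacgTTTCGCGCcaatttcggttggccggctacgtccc

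Of 28 naive pluripotency genes 16 fell and 4 rose (scaled to spike-ins 23 and 0), with a median of -0.323; 2 rose without replicate 2 of cKO or replicate 1 of control. Besides Dppa3 and Lin28a, Sall4 had 570 and 606 CPM in control and 376 and 396 CPM in cKO (-0.61 ± 0.049). The core factor genes Pou5f1 (226 and 237 CPM in control and 166 and 179 CPM in cKO; -0.43 ± 0.068) and Nanog (600 and 593 CPM in control and 468 and 448 CPM in cKO; -0.38 ± 0.048) were moderately lower, and Sox2 (0.07) and Esrrb (0.06) were not called. Prdm14 fell by 0.54 ± 0.090, and Klf4 (0.24 ± 0.082) and Tbx3 (0.26 ± 0.055) rose, and both were below 0 with spike-in scaling. Shares in the formative and primed list were 21.1% higher and 10.5% lower, against 13.5% and 15.8% of all genes. The formative and primed list had 4 higher and 2 lower of 19 (scaled to spike-ins 3 and 7; 1 lower without any 1 library), with Dnmt3l, a cofactor of DNA methylation, at 56.6 and 64.5 CPM in control and 104 and 95.4 CPM in cKO (0.71 ± 0.079) and the methyltransferase gene Dnmt3a at 138 and 154 CPM in control and 88.03 and 98.6 CPM in cKO (-0.65 ± 0.067).

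Markers of differentiated lineages were scarce outside the endoderm list. The 7 tested mesoderm and primitive streak markers summed to 13.8 and 13.7 CPM in control and 18.02 and 13.7 in cKO, with T lower as above and Kdr higher (1.08 ± 0.33), and Mixl1, Mesp1 and Tbx6 did not reach the minimum for testing. The 10 trophoblast markers summed to 48.7 and 51.5 CPM in control and 43.1 and 37.9 in cKO, and 3 fell, among them Tfap2c (25.9 and 24.9 CPM in control and 12.7 and 12.4 CPM in cKO; -1.01 ± 0.15), while Krt18 rose (0.86 ± 0.26); 1 fell without replicate 1 of cKO or replicate 2 of control. The 11 endoderm markers summed to 755.8 and 771 CPM in control and 633 and 699 in cKO. Of these 4 fell, all of them also members of the matrix list, such as Lamb1 (-0.34 ± 0.062). Cubn rose (2.37 ± 0.65), but by DESeq2 0 members of this list were higher. Gata6, Sox7 and Foxa2 did not reach the minimum for testing. Of 5 neuroectoderm markers Nes fell (33.9 and 34.7 CPM in control and 19.97 and 18.8 CPM in cKO; -0.83 ± 0.10), and Sox11 (0.32 ± 0.12, below 0 with spike-in scaling) and Map2 (0.77 ± 0.29) rose, but neither was called without replicate 1 of cKO or without either control. The part of differentiated cells in the results was not tested. Germline genes had 5 higher and 5 lower of 29 (17.2% each, near the shares of all genes; scaled to spike-ins 1 and 11), and 2 were higher without replicate 1 of cKO or replicate 2 of control. Dazl, a translational regulator of germ cells, had 138 and 142 CPM in control and 64.3 and 68.3 CPM in cKO (-1.08 ± 0.080), the receptor gene Kit 326 and 323 CPM in control and 181 and 186 CPM in cKO (-0.82 ± 0.053) and the meiotic entry gene Stra8 33.4 and 33.1 CPM in control and 17.8 and 18.99 CPM in cKO (-0.85 ± 0.10), while Stag3, a meiotic cohesin gene, rose by 0.42 ± 0.083 and Sycp2, of the synaptonemal complex, by 1.08 ± 0.27.

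The machinery of m6A itself moved little. Of 11 writer and eraser genes 5 rose and 1 fell, with a median of 0.0877 that turned to -0.282 with spike-in scaling (0 and 7). The writer subunit genes Wtap (114 and 109 CPM in control and 136 and 125 CPM in cKO; 0.23 ± 0.075), Zc3h13 (0.26 ± 0.069), Rbm15 (0.21 ± 0.063) and Mettl3 itself (38.3 and 39.9 CPM in control and 42.6 and 51.8 CPM in cKO; 0.27 ± 0.10) rose, each turning below 0 with spike-in scaling, and Rbm15b fell by 0.26 ± 0.080. Leaving out any 1 of the 4 libraries left 1 to 3 members higher. Of 11 other readers 4 fell and 0 rose in edgeR (5 and 0 at an unadjusted p below 0.05, 4 and 0 by DESeq2): Igf2bp3 (116 and 112 CPM in control and 80.2 and 76.9 CPM in cKO; -0.54 ± 0.070), Ythdf1 (120 and 118 CPM in control and 81.5 and 86.2 CPM in cKO; -0.50 ± 0.071), Hnrnpc (-0.22 ± 0.058) and Igf2bp1 (-0.18 ± 0.042). Ythdc2, the other YTHDC gene, was not called (-0.08 ± 0.10).

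Lists of nuclear RNA processing genes mostly held more lower than higher members, as did all genes tested (15.8% and 13.5%). The share lower was 16.7% for snoRNA hosts, near that of all genes, 23.8% for the exosome list and 38.9% for export factors. Of 21 genes of the nuclear exosome and its adaptors 1 rose and 5 fell (scaled to spike-ins 0 and 20), including the exosome subunits Exosc5 (106 and 113 CPM in control and 61.2 and 74.7 CPM in cKO; -0.69 ± 0.082) and Exosc4 (-0.58 ± 0.13) and the poly(A) polymerase genes Tent4a (-0.48 ± 0.10) and Tent4b (-0.37 ± 0.089). Of 18 mRNA export genes 1 rose and 7 fell (0 and 14), with Nxt1, the partner of the export receptor, at 20.1 and 20.6 CPM in control and 10.9 and 12.6 CPM in cKO (-0.79 ± 0.16) and the adaptor gene Alyref at -0.30 ± 0.062. Of 18 polyadenylation factors 0 rose and 5 fell in edgeR (0 and 8 at an unadjusted p below 0.05, 0 and 5 by DESeq2, 0 and 18 scaled to spike-ins), with Papola, the canonical poly(A) polymerase gene, at 343 and 337 CPM in control and 259 and 248 CPM in cKO (-0.43 ± 0.056) and Cstf3 at -0.56 ± 0.080. Of 16 SR splicing factors 3 rose and 5 fell (0 and 15; 3 fell without replicate 2 of cKO or replicate 1 of control, and 1 rose without either control), with Srsf2 at -0.32 ± 0.050 and the speckle protein gene Srrm2 at 0.20 ± 0.044, the latter at -0.168 with spike-in scaling. The kinases of SR proteins fell in 2 of 7 cases, Srpk1 (316 and 330 CPM in control and 236 and 244 CPM in cKO; -0.43 ± 0.054) and Clk2 (-0.31 ± 0.089), and in 1 without replicate 2 of either group. Of 18 snoRNA host genes 1 rose and 3 fell (0 and 14; 6 fell without replicate 1 of cKO), and of 4 stable structural RNAs Rn7sk, the RNA that restrains transcription elongation, rose slightly (5360 and 5124 CPM in control and 6182 and 5741 CPM in cKO; 0.19 ± 0.033), at -0.182 with spike-in scaling.

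Among chromatin regulators, those of H3K9 methylation and heterochromatin had 5 higher and 9 lower of 31 (scaled to spike-ins 0 and 26), and 2 to 8 were higher when any 1 of the 4 libraries was left out. Ehmt2, which encodes the H3K9 methyltransferase G9a, had 82.4 and 96.9 CPM in control and 41.8 and 51.4 CPM in cKO (-0.95 ± 0.087), and Trim28, the corepressor gene of zinc finger proteins, 1146 and 1184 CPM in control and 750 and 860 CPM in cKO (-0.53 ± 0.050). Hdac1 (-0.55 ± 0.057) and Uhrf1, which links maintenance methylation to replication (-0.47 ± 0.050), fell as well. Setdb1, the H3K9 methyltransferase gene that acts on retrotransposons, was not called, at 222 and 234 CPM in control and 227 and 232 CPM in cKO (0.01 ± 0.058). Polycomb genes, p300 and remodelers had 4 higher and 11 lower of 32 (scaled to spike-ins 1 and 28). Without replicate 1 of cKO or either control 7 were lower, and without replicate 2 of control 2 were higher. Ezh2, the H3K27 methyltransferase gene, had 131 and 129 CPM in control and 106 and 89.9 CPM in cKO (-0.40 ± 0.080), Aebp2, an accessory factor of Polycomb complex 2, was at -0.48 ± 0.061, Kmt2b at -0.38 ± 0.066 and, upwards, the DNA demethylation gene Tet1 at 873 and 864 CPM in control and 1309 and 1295 CPM in cKO (0.58 ± 0.044) and Kdm2b at 0.50 ± 0.066.

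Of 33 tested p53 targets, 20 rose and 4 fell, and their median was 0.367, which was at -0.00291 with spike-in scaling (11 higher, 10 lower). Cd80 had 10.3 and 9.24 CPM in control and 26.8 and 30.4 CPM in cKO (1.56 ± 0.14), Plk2, a polo-like kinase gene, 94.4 and 95.1 CPM in control and 190 and 182 CPM in cKO (0.97 ± 0.073) and Mdm2, the ubiquitin ligase gene of p53, 261 and 275 CPM in control and 437 and 420 CPM in cKO (0.68 ± 0.058). Cdkn1a, the gene of the cell cycle inhibitor p21, changed less (135 and 137 CPM in control and 147 and 180 CPM in cKO; 0.26 ± 0.077) and was at -0.100 with spike-in scaling, and Bax, a gene of apoptosis, fell (-0.54 ± 0.077). Immediate early genes, which respond within minutes to signals and to handling, numbered 12 higher and 1 lower of 22, and their median was 0.748 (scaled to spike-ins 5 and 2). By DESeq2 6 rose and 1 fell, and when any 1 of the 4 libraries was left out 6 to 8 rose. Jun had 7.05 and 7.18 CPM in control and 25.9 and 21.4 CPM in cKO (1.73 ± 0.16), Klf6 17.3 and 17.8 CPM in control and 41.1 and 40.7 CPM in cKO (1.22 ± 0.13) and the stress-induced Atf3 1.84 and 2.29 CPM in control and 7.71 and 5.25 CPM in cKO (1.63 ± 0.33), while the phosphatase gene Dusp1 fell (-0.50 ± 0.13) and Fos (0.83 ± 0.36) and Egr1 (0.82 ± 0.67) were below 4 CPM and not called.

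Metabolic and stress lists were lower or mixed, and the innate sensing list did not exceed the shares of all genes by much in either direction. Of chaperone genes 17.9% were higher and 25% lower, and of innate sensing genes 8.33% and 16.7%. The shares of all genes were 13.5% and 15.8%. Glycolysis had 4 higher and 9 lower of 22 (scaled to spike-ins 0 and 17; 5 to 7 lower when any 1 library was left out, the 5 without replicate 1 of cKO), with Ldha at 675 and 707 CPM in control and 483 and 485 CPM in cKO (-0.51 ± 0.046) and the glucose transporter genes Slc2a1 at 0.48 ± 0.057 and Slc2a3 at 0.24 ± 0.036, the latter at -0.128 with spike-in scaling. Genes of the ATF4 and serine pathways had 4 higher and 8 lower of 25 (2 and 14; 2 higher without replicate 2 of cKO or replicate 1 of control), with Asns, the asparagine synthetase gene, at 474 and 486 CPM in control and 273 and 279 CPM in cKO (-0.80 ± 0.050) and Shmt1 at 207 and 212 CPM in control and 116 and 123 CPM in cKO (-0.81 ± 0.068), while the p53 and ATF4 target Sesn2 rose (0.65 ± 0.082). Chaperone genes had 5 higher and 7 lower of 28 (0 and 20), and 1 to 4 were higher when any 1 library was left out. Among them were Hspe1 (-0.59 ± 0.076) and the abundant Hspa8 (1356 and 1351 CPM in control and 1169 and 1076 CPM in cKO; -0.27 ± 0.044). Innate sensing genes had 2 higher and 4 lower of 24 (0 and 10; 2 lower without replicate 1 of cKO and 1 without replicate 2 of control), with Stat2 at 0.47 ± 0.10, Ifitm3 at 0.57 ± 0.13, Irf1 at -0.51 ± 0.14 and Oas1a at -0.81 ± 0.23. Isg15, Ifit1, Ifit3 and Irf7 did not reach the minimum for testing.

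**Figure D4:**
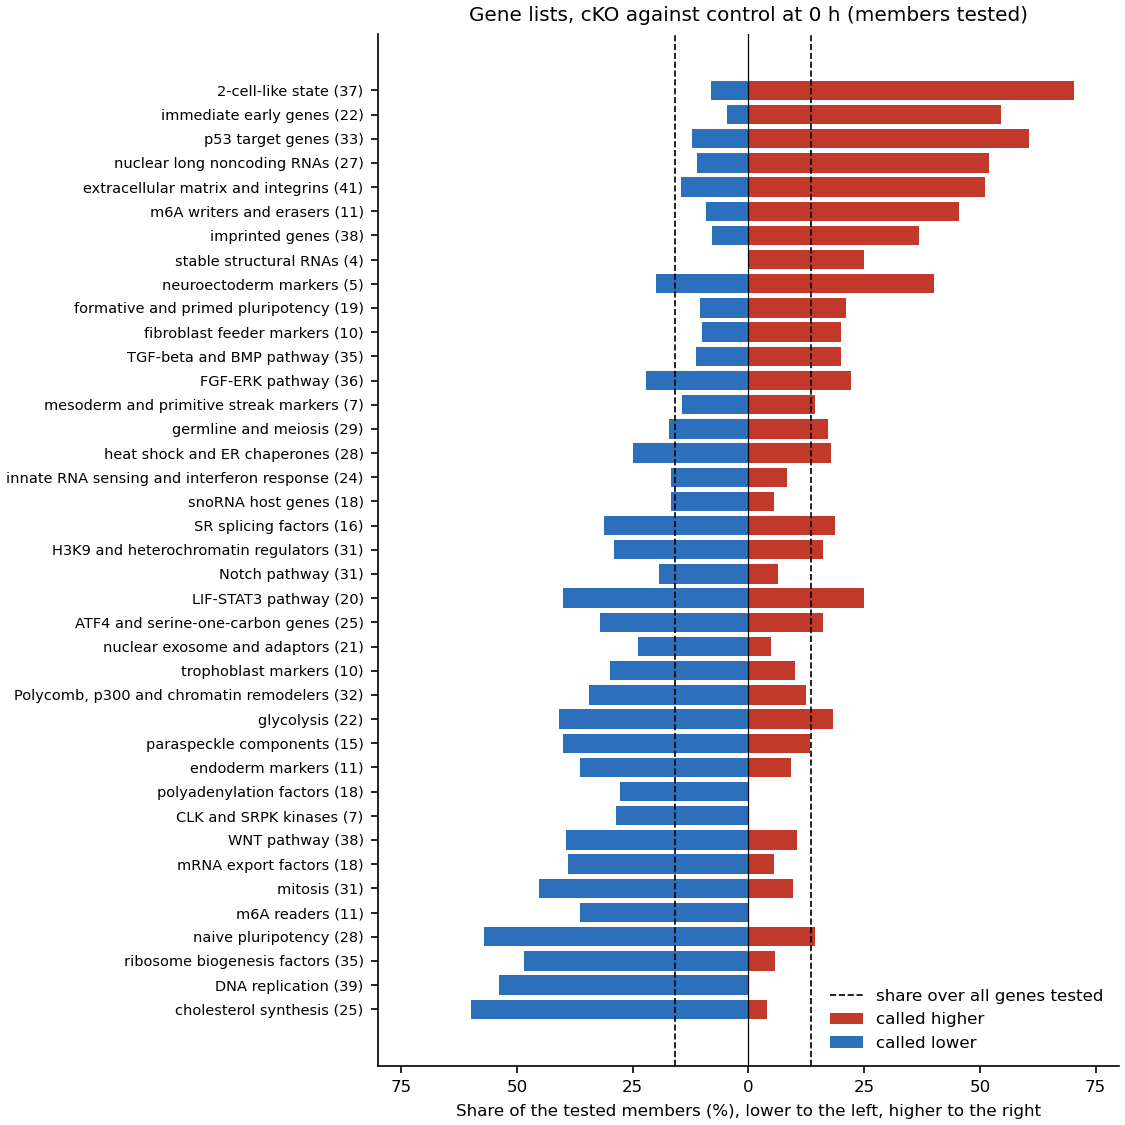
Share of the tested members of each of 39 gene lists that were called higher (red, to the right) or lower (blue, to the left) in cKO at 0 h, ordered by the difference of the shares, with the number tested in brackets. Dashed lines give the shares over all genes tested, 13.5% higher and 15.8% lower; the 2-cell-like list reaches 70.3% higher and cholesterol synthesis 60.0% lower.

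The same genotypes were compared after 6 h of actinomycin D, in libraries that the comparison at 0 h does not use. At 6 h 7591 of 17900 genes were called (42.4%), 19.7% higher and 22.7% lower. Scaled to spike-ins 1180 were higher and 8330 lower, and the median of all genes moved from -0.0214 to -0.442. Of the 2425 genes higher at 0 h, 1329 (54.8%) were also called higher at 6 h, which is 37.6% of the 6 h list, and 156 were called lower. Of the 2830 lower genes, 1797 (63.5%, or 44.3% of the 6 h list) were also called lower and 202 higher. With spike-in scaling at both times, 43.9% of the 790 higher genes were also higher and 75.1% of the 7571 lower genes also lower. All 23 genes of largest change described were called the same way at both times, and the increases, with the exception of Gpnmb (2.22), were smaller at 6 h. Scaled to spike-ins 9 of the 12 increases and all 11 decreases were called the same way. The difference between the times was called in 7 of the 12 increases, towards lower, and in 2 of the 11 decreases, towards higher (9 and 0 scaled to spike-ins). The genes were chosen for extreme values at 0 h, which enter this difference, so these counts are descriptions and are not read against those of all genes. For Neat1 the cKO effect was 0.65 at 6 h (difference -1.38, adjusted p = 5.73e-13) and for Jun 0.22 (-1.52); scaled to spike-ins the effects at 6 h were 0.23 and -0.20.

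Gene lists were followed from 0 h to 6 h as well; over all genes the difference between the times was called towards higher at 6 h in 9.77% and towards lower in 9.35%. The 2-cell-like list had 27 of 37 members higher and 1 lower at 6 h, with Zscan4d at 1.62. The difference was called in 7 members, all towards higher at 6 h (4 scaled to spike-ins). In the extracellular matrix list 6 of 41 were higher and 19 lower at 6 h, and the difference was called in 26 members, all towards lower (27 scaled to spike-ins). Fn1 went from 0.36 to -0.25 (difference -0.61, adjusted p = 4.83e-11). In the replication list 9 of 39 were higher and 16 lower at 6 h (0 and 33 scaled to spike-ins), and the difference was called towards higher in 12 and towards lower in 4 (10 and 7); Pcna was at 0.08 (-0.34 scaled to spike-ins) and Ccne1 at -0.11, both differing from 0 h (adjusted p = 1.67e-05 and 9.89e-06), while Pold1 stayed lower (-1.11, difference -0.26, adjusted p = 0.055). The ERK-induced Spry4 was higher by 4.23 at 6 h. Fgf4 turned from lower to higher (0.89; difference 1.30, adjusted p = 3.52e-12). At 6 h a level reflects how much RNA is left after transcription was stopped.

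The Mettl3 experiment, with KO1 and KO2 averaged against their own control in 6 other libraries, gave a comparison of reader and writer without drug. Scaled to spike-ins, Mettl3 itself was at 0.0186 in these lines (edgeR adjusted p = 0.844). Counts per gene cannot show whether an exon is missing, so the lines are called by their labels. Of 21802 genes tested there 10769 were called (49.4%), 23.9% higher and 25.5% lower. Scaled to spike-ins 10668 were higher and 2025 lower, and the median of all genes moved from -0.0287 to 0.344, opposite to its move at 0 h of Ythdc1 cKO. Counts of higher and lower genes therefore hold relative to the typical gene of each experiment. Of 2331 genes higher in Ythdc1 cKO and tested there, 599 (25.7%) were also higher in the Mettl3 knockouts and 937 (40.2%) were lower. Of 2808 lower genes 687 (24.5%) were also lower and 1286 (45.8%) were higher. With spike-in scaling of both experiments, 36.7% of 728 higher genes were also higher and 27.7% lower, and 6.45% of 7472 lower genes were also lower and 76.1% higher. Over 16831 genes the log2 fold changes of the 2 experiments had a Pearson correlation of -0.161; genes are not independent replicates, and each experiment has its own control, so this is a description. Whether KO1 and KO2 are each a single clone is not given, and their values are not shown apart.

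Some lists that moved in Ythdc1 cKO were on the other side in the Mettl3 knockouts. Over all genes the difference between the experiments was called towards higher in Ythdc1 cKO in 16.4% and towards lower in 18.7%; scaled to spike-ins 1007 were higher and 10144 lower. The 2-cell-like list had 1 member higher and 23 lower there (median -0.886), and the difference between the experiments was called in 30 members towards higher in Ythdc1 cKO and in 1 towards lower. Scaled to spike-ins 2 members were higher and 16 lower in the Mettl3 knockouts, and 20 and 3 differed. Zscan4d was at -0.89 in the Mettl3 knockouts (adjusted p = 6.23e-07) and Usp17le at -1.61. Of 25 cholesterol synthesis genes 20 were higher there (median 0.512), while the difference was called towards lower in Ythdc1 cKO in 20 members and towards higher in 1, with Insig1 at 1.14 in the Mettl3 knockouts. With spike-in scaling all 25 were higher there, and the difference was called towards lower in all 25. Among WNT targets, Cdx1 was higher by 2.40 in the Mettl3 knockouts, Axin2 by 1.75 and Ccnd1 by 1.56, where each was lower in Ythdc1 cKO. All 3 kept these directions with spike-in scaling. Of p53 targets 7 were higher and 19 lower there, and the difference was called towards higher in Ythdc1 cKO in 20 and towards lower in 3. This turned with spike-in scaling, to 21 higher and 5 lower in the Mettl3 knockouts and differences of 7 and 16. Of the 12 largest increases, 2 were called higher in the Mettl3 knockouts and 8 lower. Of the 11 decreases, 3 were called lower there and 4 higher. Scaled to spike-ins 4 of the increases were higher and 5 lower, and 8 of the decreases were higher and 0 lower. The difference between the experiments was called in all 23 (scaled to spike-ins in 10 of the 12 and in all 11; 35.1% of all genes tested), but they were chosen by 1 of the 2 effects it compares, so this is a description. Neat1 was at -0.07 there (0.30 scaled to spike-ins), against 2.03 in Ythdc1 cKO, and Lefty2 at 1.62, against -1.18. Other genes were lower in both: Stra8 was at -1.79, Phgdh at -0.40 and Lama1 at -0.42, but with spike-in scaling Phgdh (-0.03) and Lama1 (-0.05) were not called in the Mettl3 knockouts.

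**Figure D5:**
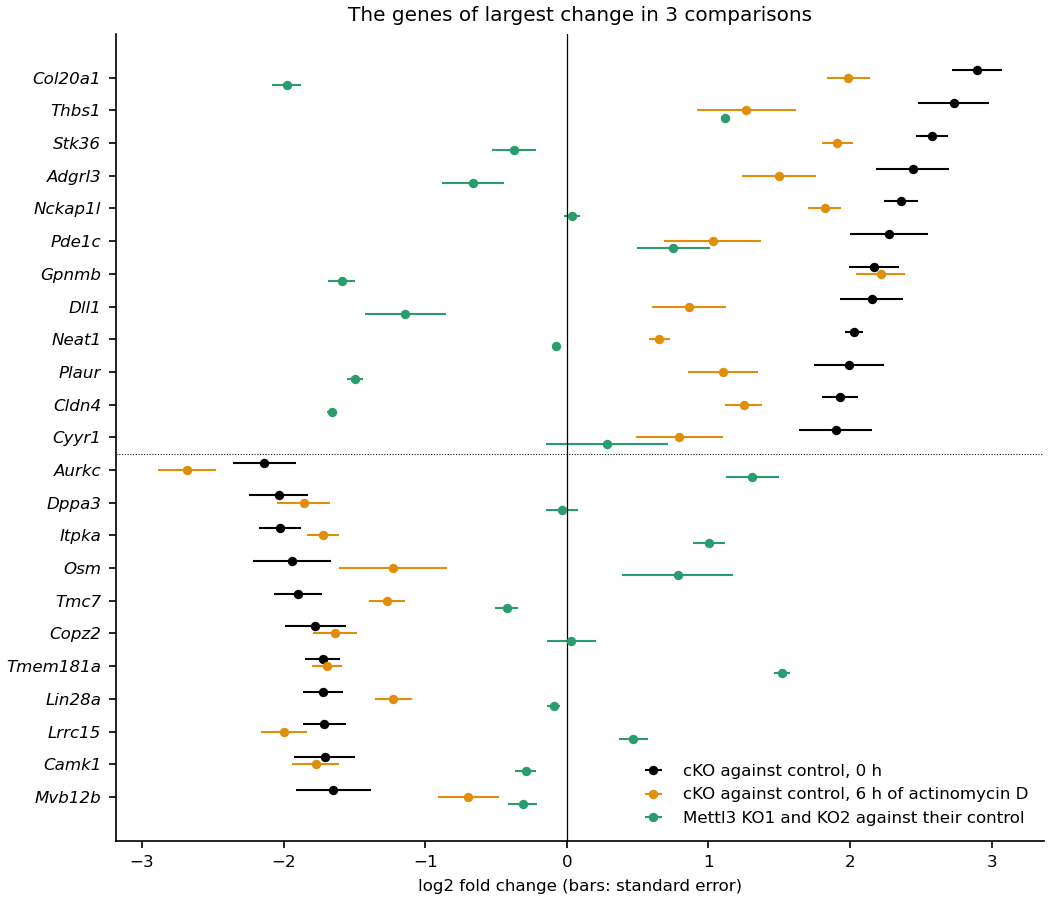
Log2 fold change with its standard error (bars) of the 12 genes with the largest increases (above the dotted line) and 11 with the largest decreases at 0 h, in 3 comparisons: cKO against control at 0 h (black), the same after 6 h of actinomycin D (orange) and Mettl3 knockouts against their control (green). All 23 lie on the same side at 0 h and 6 h, while 8 of the increases and 4 of the decreases were called the opposite way in the Mettl3 knockouts (5 and 8 scaled to spike-ins).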

How the data were processed

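Nuclear RNA-seq was deposited as raw read counts per gene. Per the submitters' processing notes the authors used CASAVA, Trimmomatic 0.38, HISAT2 2.1.0 and HTSeq with mm10; HTSeq options, strand included, were in no source used here, and only uniquely placed reads entered the deposited counts. The table held 54446 gene identifiers, of which 54409 were found in GENCODE M21, and 92 spike-ins; HTSeq's summary lines, 52.4% to 56.6% of unique reads in the 4 libraries, were left out of library sizes and tests. The single-library files and the series table differed in 0 cells.

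From these counts edgeR 4.0.16 (R 4.3.3) fitted a robust quasi-likelihood model to the 12 Ythdc1 libraries, with 1 coefficient per group, TMM scaling, filterByExpr at a minimum count of 10 and Benjamini-Hochberg adjustment over all genes tested; calls have an adjusted p below 0.05. Group sizes were 2 and 2. The biological coefficient of variation was 6.52%. CPM of genes are deposited counts scaled to the library's total over the genes tested, adjusted by its TMM factor. Spike-in reads were set against the unadjusted total of gene reads. The ± values are approximate standard errors, the size of the log2 fold change divided by the square root of the quasi-likelihood F. Their spread is estimated from all libraries of the fit, not from the compared libraries alone. The Mettl3 fit used 6 libraries and the difference between experiments the 10 libraries without drug. The same code was tested on simulated counts.

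The genes named were Ythdc1, the 12 called genes of highest and of lowest fold change with a mean of at least 50 counts, regular symbols and no overlap between groups, the 6 most abundant genes changed at least 2-fold in each direction, and in each list the 4 called members of smallest p, or all called members where these were 5 or fewer. Pathway members that were not called are named by role, and some genes that the rule takes are not reported here. Further called members, such as Sp5, Cdx2, Mcm7, Notum, Mettl3 and Ezh2, and the genes of the 6 h and Mettl3 comparisons outside the largest changes, were chosen after their values were seen. The members and lists were chosen with earlier results of these data known. Alternatives covered scaling, including ERCC spike-ins and DESeq2 1.42.0 size factors, the DESeq2 test, filters, thresholds, the libraries in the fit, a replicate block and leaving out each library; the fits without mitochondrial genes and Gm26917 and without the 3 h libraries, and spike-in scaling of lists, overlaps and RNA classes in the other comparisons, were added after seeing the data.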

Additional observations from a re-analysis of the deposited data

Results flagged for a closer look

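In 9 of the 23 genes of largest change, the effect of cKO differed between 0 h and 6 h of actinomycin D by the interaction term in edgeR at an adjusted p below 0.05. The log2 effect at 6 h was lower than at 0 h by these signed differences: -0.906 for Col20a1, -1.47 for Thbs1, -0.666 for Stk36, -0.540 for Nckap1l, -1.29 for Dll1, -1.38 for Neat1 and -0.681 for Cldn4. For 2 genes that were lower in cKO the effect was nearer to 0 at 6 h, by 0.627 for Tmc7 and 0.954 for Mvb12b.

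In all 23 genes the effect of Ythdc1 cKO differed from that of the Mettl3 knockouts in the fit of the 10 libraries without drug. Among genes higher in cKO, the difference of Ythdc1 minus Mettl3 was above 3 for Col20a1 (4.85), Gpnmb (3.73), Cldn4 (3.57), Plaur (3.46), Dll1 (3.27) and Adgrl3 (3.08). It was 2.93 for Stk36, 2.30 for Nckap1l, 2.08 for Neat1, 1.598 for Thbs1, 1.59 for Cyyr1 and 1.504 for Pde1c. Among genes lower in cKO it was -3.47 for Aurkc, -3.27 for Tmem181a, -3.05 for Itpka, -2.76 for Osm and -2.20 for Lrrc15. It was -2.02 for Dppa3, -1.83 for Copz2, -1.65 for Lin28a, -1.5 for Tmc7, -1.44 for Camk1 and -1.36 for Mvb12b. These genes were chosen for their size of change at 0 h, which enters both differences.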

How the results depend on the processing

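With 5255 genes called (2425 higher, 2830 lower), the counts stayed within 1.5 times under DESeq2 size factors (5387), library size (5423), protein-coding TMM (5273), the DESeq2 test (4154), no filter (5022), a filter of 50 reads (5007), the 4 libraries alone (5028), all 18 libraries (5755), without mitochondrial genes and Gm26917 (5542) and without the 3 h libraries (4907). Higher genes were 36.4% of calls without mitochondrial genes and Gm26917 and 37.9% with no filter. Scaled to spike-ins 8361 were called (790 higher, 7571 lower), against a fold change of 1.2 2324 (1171 and 1153), and at 2-fold 1013 (689 and 324). Leaving out 1 library gave 3475 to 4424 calls and 1535 to 1930 higher; the lowest of each were without replicate 2 of control, and without replicate 1 of control 1616 were higher. Fewer samples then stand behind each fit, and 22 to 33 of the genes tracked lost their call. Ythdc1 was -0.202 to 0.0418 in those fits, above 0 without replicate 2 of cKO. Spike-in scaling turned genes that had risen to Kcnq1ot1 -0.179, Etv5 -0.0922, Fn1 -0.00346, Klf4 -0.129, Lamc1 -0.110, Lefty1 -0.00730, Pspc1 -0.106, Rbm15 -0.158, Rn7sk -0.182, Scap -0.0855, Slc2a3 -0.128, Smad7 -0.0265, Sox11 -0.0533, Srrm2 -0.168, Spred1 -0.0284, Stat3 -0.0807, Tbx3 -0.106, Wtap -0.134, Zc3h13 -0.112, Cdkn1a -0.100 and Mettl3 -0.0957; beyond the smaller share of reads given to cKO, the cause was not tested. Deviations of same-numbered replicates were nearly uncorrelated (r = 0.0222 over 17900 genes at 0 h). Counting noise of low genes enters this value, so it cannot show whether they share a culture or batch. With the replicate block 5481 genes were called (2513 higher, 2968 lower). Depth limits genes of low level: 8.34% of the lowest of 4 level classes were called.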

Other observations

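Chromosomes differed a little in the direction of their protein-coding genes at 0 h, of which 14.4% were higher and 19.3% lower in all. On chromosome 1, 19.05% of tested genes were higher, and the median was 0.07, while on chromosome 7 24.1% and on chromosome 11 25.3% were lower. On chromosome 17 9.94% were higher. These are descriptions, with no test.

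Among reads of the mitochondrial genome, 8 of 20 tested genes rose (40.0%, against 13.5% of all genes), with a median of 0.370. Scaled to spike-ins 2 were higher, and the median was -0.00286. Their share of gene reads is given with the library depths above.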
